A study of Nothobranchius furzeri with 10 samples.

Results

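The genes with the most abundant transcripts in the liver of the turquoise killifish, Nothobranchius furzeri, were examined across 10 livers. They were chosen from the deposited table of read counts as the genes with a mean of 1000 CPM (counts per 1000000 counts) or more over all 10 libraries. CPM is the count of a gene relative to the total of its library, after correction by a library factor (the TMM factor) that compares libraries with the most extreme genes set aside. This gave 192 genes of 26739 in the table and of 15621 that passed a filter on low counts. All 192 passed the filter, and the lowest count of any of them in any library was 4627. Abundance chose them, so their high level is a description and carries no test.

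The fish were 10-week-old males of 1 transgenic strain, line 4010; Tg(mylz2:egfp,tfam), and both groups carried the transgene. In zebrafish mylz2 is a gene of fast skeletal muscle, and its promoter is used to drive transgenes there. Livers of 5 fish labelled swim-tunnel, called exercised, were set against livers of 5 fish labelled as controls without exercise. Replicates were numbered 1 to 5 within each group in accession order, and nothing states that they came from separate tanks, so each p-value speaks only of the spread among these livers, which may be technical in part.

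The liver is the main source of the proteins of blood plasma, among them carriers, clotting factors and lipoproteins, and it also runs much of the metabolism of sugars, lipids and amino acids. Transcripts of secreted proteins usually rank high in liver RNA, beside those of the translation machinery. The tables name genes only by identifiers, of which 0 of 192 were found in the reference table of the species, so no role is given to any gene here and the liver identity could not be checked with marker genes. In bulk tissue, fewer cells of a type and less RNA per cell cannot be told apart.

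Library totals lay between 26850938 and 40089247 counts. TMM factors lay between 0.718 and 1.21, and the lowest of each group were those of exercised replicate 3 (0.896) and control replicate 4 (0.718). These 2 livers stood apart in many of the abundant genes, and many of the results that rest on them are given with and without them. The principal components below were not computed without both.

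The 192 genes, 1.23% of those that passed the filter, held a mean of 59.1% of all counts. Their share was 55.2%, 55.4%, 63.6%, 53.7% and 56.8% in exercised replicates 1 to 5. It was 60.8%, 62.6%, 57.9%, 68.0% and 57.3% in control replicates 1 to 5. Exercised replicate 3 and control replicate 4 were the highest of their groups, and the groups overlapped only through exercised replicate 3. Exercised livers averaged 56.9 ± 3.89% and controls 61.3 ± 4.32% (SD, n = 5 each), a difference of -4.38 percentage points (exact permutation test, two-sided, p = 0.127, adjusted over 4 measures p = 0.254). The difference was -6.04 without exercised replicate 3 (exact permutation p = 0.0317, unadjusted) and -2.71 without control replicate 4 (exact permutation p = 0.246, unadjusted). Without both it was -4.38 (exact permutation p = 0.0286, the smallest that 4 against 4 livers allow, unadjusted), and these livers were left out after their values were seen.

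The number of genes needed to hold 50% of the counts was 145, 132, 69, 151 and 128 in the exercised livers. In the control livers it was 104, 99, 122, 68 and 121. Exercised replicate 3 and control replicate 4 were the most concentrated libraries. Exercised livers averaged 125 ± 32.7 genes and controls 102.8 ± 21.9 (SD, n = 5 each), with p = 0.254 by the exact permutation test and 0.339 after adjustment. The difference of 22.2 genes became 36.2 without exercised replicate 3 (exact permutation p = 0.0238, unadjusted) and 13.5 without control replicate 4 (exact permutation p = 0.468, unadjusted).

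**Figure D1:**
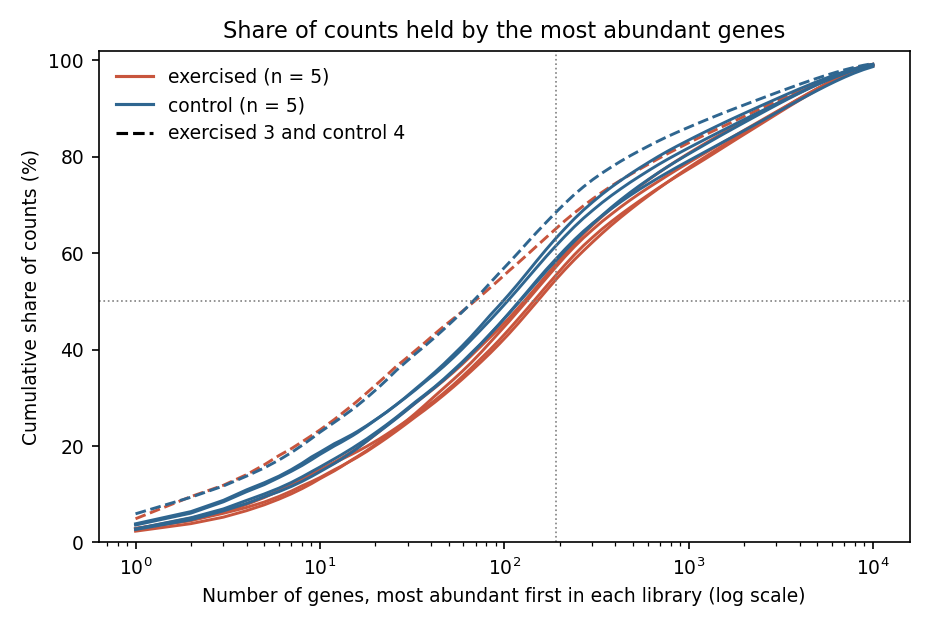
Cumulative share of counts (%) against the number of genes, most abundant first in each library, on a log axis; each line is 1 library, red for exercised and blue for control, dashed for exercised replicate 3 and control replicate 4. The dotted lines mark 192 genes and 50% of counts, which the dashed libraries reach with 69 and 68 genes and the others with 99 to 151.

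The head of the ranking was stable only in its first place and changed below it. The gene Nfu_g_1_014314 took the most counts in 9 of 10 libraries, and Nfu_g_1_015843 did so in exercised replicate 3. Only 5 genes were among the top 10 of every library, while 21 were among the top 10 of at least 1. Of the 192 genes, 115 stood at 1000 CPM or more in every liver and 77 did not in at least 1, and 72 genes outside the list reached 1000 CPM in at least 1 liver. Single livers had between 149 and 187 of the 192 genes at 1000 CPM or more, the lowest in exercised replicate 3 and the highest in control replicate 4.

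Nfu_g_1_014314 took a mean of 3.44% of counts. It stood at 23095, 20713, 51389, 24750 and 30050 CPM in exercised replicates 1 to 5, and at 38722, 40099, 27950, 82772 and 23952 CPM in control replicates 1 to 5. Control replicate 4 and exercised replicate 3 were far above the others, and the groups overlapped. Its log2 change, exercised minus control, was -0.51 ± 0.367 (SE; edgeR adjusted p = 0.456).

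Nfu_g_1_015843, with a mean share of 2.42%, stood at 18849, 13903, 54820, 13053 and 17252 CPM in exercised livers. In control livers it stood at 21575, 26090, 22846, 47999 and 18105 CPM. The same 2 livers were high, and the groups overlapped. Nfu_g_1_000093, the third, stood at 9629, 9201, 21210, 9405 and 16553 CPM in exercised and at 23443, 23250, 18236, 32586 and 12679 CPM in control livers, with exercised replicate 3 and control replicate 4 each highest within its group, though exercised replicate 3 lay below control replicates 1 and 2.

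Nfu_g_1_020367, the fourth, followed another course. It stood at 12053, 10405, 14208, 9655 and 15103 CPM in exercised livers and at 25394, 27489, 17407, 21586 and 16623 CPM in control livers. Every exercised liver lay below every control liver, and exercised replicate 3 and control replicate 4 did not stand out. Its log2 change was -0.82 ± 0.207 (SE; edgeR adjusted p = 0.0567), which missed the threshold of 0.05. The adjusted p lay between 0.00204 and 0.166 over the alternatives, and passed with DESeq2, limma-voom, robust dispersions, the filter of 1 CPM in 5 libraries, and without exercised replicate 3 or 5.

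The remaining genes of the top 10 by CPM were Nfu_g_1_019225, Nfu_g_1_021050, Nfu_g_1_022309, Nfu_g_1_004806, Nfu_g_1_002363 and Nfu_g_1_005996, with means from 13686 down to 8663 CPM. None of the 10 passed the test. Nfu_g_1_022309 and Nfu_g_1_004806 were lowest in exercised replicate 3 within their group, at 9095 and 7305 CPM, so the high values of that liver were not shared by the whole top 10.

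A long gene yields more reads per transcript than a short one, so the order by CPM above is one of read counts, and levels of different genes were compared per kilobase of gene. A length in bases was recovered for all 192 genes from the ratio of counts to the deposited RPKM, and ranged from 321 to 11777, with a median of 1849.5. The median was 2931 bases among genes of 100 to 1000 CPM and 3546 among those of 10 to 100 CPM. Lengths were multiples of 3 for 52.6% of the 192 genes, against 49.9% at 100 to 1000 CPM and 48.1% at 10 to 100 CPM. Some gene models may thus cover the coding part alone, in all these classes. These shares do not give how many, since other lengths can be multiples of 3 by chance. Whether this affects the level per kilobase was not tested.

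Per kilobase, Nfu_g_1_014314, with 783 bases, stayed first, at a mean of 46423 CPM per kilobase. Nfu_g_1_021050, with 699 bases, followed at 17855, and Nfu_g_1_011044, with 621 bases, at 13446 CPM per kilobase. Nfu_g_1_012083 stood at 10051 and Nfu_g_1_013469 at 9104 CPM per kilobase. Next came Nfu_g_1_000093 at 7862, Nfu_g_1_007038 at 7650, Nfu_g_1_019160 at 6762, Nfu_g_1_011088 at 6137 and Nfu_g_1_004806 at 5962 CPM per kilobase. Only 4 genes were in both top 10 lists. Nfu_g_1_015843, the second by counts, has 6210 bases and was number 23 per kilobase, and Nfu_g_1_020367, with 5098 bases, was number 33.

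The abundant genes covered a wide range from steady to variable. The spread between livers was measured as the coefficient of variation (CV, SD over mean of CPM) within each group, combined over both groups. Its quartiles were 12.1%, 23.0% and 46.6% among the 192 genes. Among the 742 genes of 100 to 1000 CPM they were 16.1%, 22.7% and 38.0%, and among the 5778 genes of 10 to 100 CPM 14.8%, 20.2% and 29.5%. The middle value was thus similar to those of these 2 classes. It was below the 29.1% of genes at 1 to 10 CPM and the 46.3% of genes under 1 CPM. The upper quartile was 3.85 times the lower, against 2.37 times at 100 to 1000 CPM and 1.99 times at 10 to 100 CPM. Without exercised replicate 3 and control replicate 4 the quartiles of the 192 genes were 9.44%, 19.3% and 26.0%, and the upper was 2.75 times the lower, against 2.51 and 2.10 times in the same classes, a smaller gap. At 100 to 1000 CPM the quartiles were then 13.9%, 20.4% and 35.0%, with the outer 2 further apart than among the 192 genes. With all 10 livers, the 86 genes at 2000 CPM or more had a median CV of 30.3%.

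**Figure D2:**
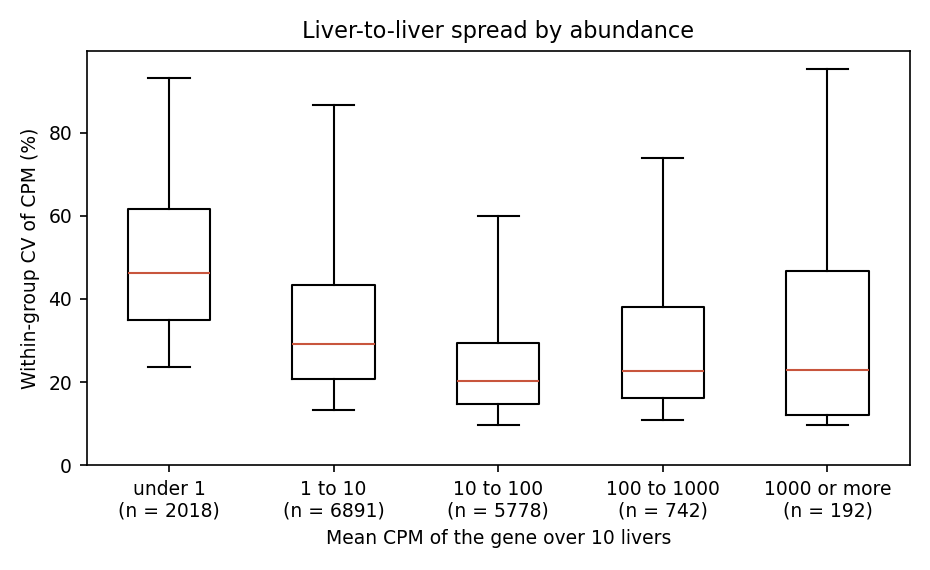
Within-group CV of CPM (%) for genes in 5 classes of mean CPM over the 10 livers; boxes show quartiles and median, whiskers the 5th and 95th percentiles. The class of 1000 CPM or more has a median of 23.0% and the widest box of the 5 classes, from 12.1% to 46.6%. Without exercised replicate 3 and control replicate 4, not drawn here, its quartiles were 9.44% and 26.0%. Those at 100 to 1000 CPM were then 13.9% and 35.0%, further apart.

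Of the 192 genes, 85 had a CV under 20%, 67 a CV from 20% to 50% and 40 a CV over 50%. Without both livers these counts were 101, 68 and 23. The highest liver exceeded the lowest by a median of 2.22 times, by less than 2 times in 79 genes and by 10 times or more in 18, against 1.84 times, 114 genes and 12 genes without both livers. The steadiest was Nfu_g_1_020209, with a CV of 7.49%. It stood at 1042, 1105, 1007, 1020 and 1230 CPM in exercised livers and at 1367, 1510, 1326, 1474 and 1313 CPM in control livers. After TMM scaling the groups did not overlap, and its adjusted p was 0.140 (edgeR). The next steadiest were Nfu_g_1_013746, Nfu_g_1_013019, Nfu_g_1_003301 and Nfu_g_1_000119, with CVs from 8.36% to 9.19%.

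The most variable was Nfu_g_1_007235, with a CV of 160%. It stood at 681, 474, 11706, 469 and 1329 CPM in exercised livers and at 905, 1973, 969, 12905 and 585 CPM in control livers. Exercised replicate 3 and control replicate 4 were far above the rest, and the other 8 livers stayed under 2000 CPM. Nfu_g_1_021170, with a CV of 134%, stood at 24533 CPM in exercised replicate 3 and 20817 CPM in control replicate 4, and between 1704 and 3291 CPM in the others. Nfu_g_1_018732, Nfu_g_1_011104 and Nfu_g_1_002596, with CVs from 110% to 128%, were highest in the same 2 livers. Without these 2 livers, 1 of each group, the CVs of the 5 genes were 54.9%, 17.7%, 26.4%, 23.9% and 22.4%, in the order named.

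To describe how the genes varied together, group means were removed from log2 CPM, so that what was left was the variation between livers of a group, and the 192 genes were compared with each other over the 10 livers. The genes share libraries and a fixed total, so the correlations are given as descriptions. Pearson's r had a median of 0.342 over 18336 pairs, with quartiles of 0.0173 and 0.658. The median was 0.197 among genes of 100 to 1000 CPM and 0.0197 among those of 10 to 100 CPM. An r over 0.9 was found in 6.34% of the pairs of abundant genes, 0.874% of the pairs at 100 to 1000 CPM and 0.223% of those at 10 to 100 CPM. With library totals in place of TMM factors, the median of the abundant genes was 0.195. Without exercised replicate 3 it was 0.515, and without control replicate 4 as well it was 0.601. The correlations of the other classes were not computed in these settings.

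Genes were joined into sets by average linkage where the mean correlation was at least 0.5, a rule chosen after the values were seen. This gave 4 sets of 10 genes or more, which together held 175 of the 192 genes, and left 17 in smaller sets. The sets were made of 90, 56, 15 and 14 genes. Genes were joined for their correlation, so a high r within a set follows in part from this rule.

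**Figure D3:**
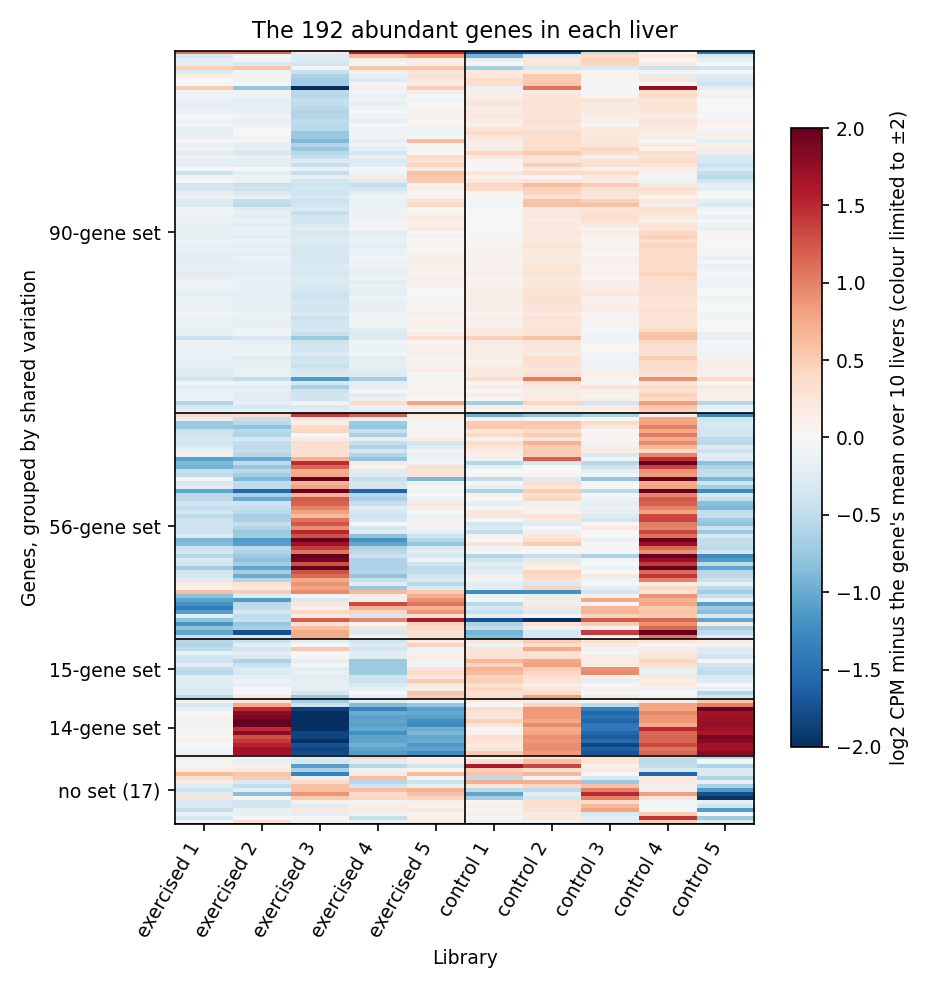
Level of each of the 192 genes (rows) in each of the 10 livers (columns), as log2 CPM minus the gene's mean over the livers, with colour limited to ±2; rows are grouped by set and the vertical line separates exercised from control livers. Most genes of the 56-gene set are high in exercised replicate 3 and control replicate 4, and the 14-gene set is high in exercised replicate 2 and control replicate 5. Most genes of the 90-gene set vary little.

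The 90-gene set was the steady one, with a median CV of 11.96%, quartiles of 10.7% and 15.8% and a highest value of 63.0%. It held 3 of the top 20 genes by CPM, led by Nfu_g_1_022309 and Nfu_g_1_004806, and its gene lengths had a median of 1185 bases against 2585.5 in the 56-gene set. Its members took 21.4%, 19.7%, 12.9%, 20.7% and 21.7% of counts in the exercised livers. In control livers they took 20.8%, 21.3%, 21.5%, 16.6% and 19.9%. The share was thus between 19.7% and 21.7% in 8 livers and lower in exercised replicate 3 and control replicate 4. On the CPM scale, 77 of the 90 genes had their lowest value in exercised replicate 3, while 49 had their highest in control replicate 4, so after TMM scaling these 2 livers lay at opposite ends. The median r within the set was 0.753. Without exercised replicate 3 it was 0.693, and 47 of the 90 genes were joined again, against 55 without exercised replicate 5.

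The 56-gene set was the largest by counts, with 14 of the top 20 genes, among them Nfu_g_1_014314, Nfu_g_1_015843 and Nfu_g_1_000093. It took 21.4%, 18.3%, 42.3%, 23.0% and 24.4% of counts in the exercised livers and 25.0%, 25.8%, 24.6%, 40.4% and 19.7% in the control livers. Exercised replicate 3 and control replicate 4 stood far above the other 8, which lay between 18.3% and 25.8%. Averaged over its genes, the highest liver exceeded the lowest by 3.31 times. The median CV was 47.5%, with a highest value of 160%, and the median r within the set was 0.811. The lowest r within it was -0.431, and 34 of the 56 genes had their highest CPM in control replicate 4, so not all followed 1 course. Without both high livers the median CV was 23.1%, the range was 1.64 times, the median r was 0.643 and 35 of the 56 genes were joined again. With library totals the median r was 0.592 and 38 genes were joined again.

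The 14-gene set varied most tightly together. It took 3.33%, 9.15%, 0.885%, 1.77% and 1.52% of counts in the exercised livers. In the control livers it took 3.39%, 4.34%, 1.30%, 3.96% and 9.72%. Exercised replicate 2 and control replicate 5 were highest, exercised replicate 3 and control replicate 3 lowest, and the level averaged over the 14 genes differed 10.3 times between the highest and the lowest liver. The median r within the set was 0.982, and 50 of the 123 pairs with an r over 0.98 among all 192 genes lay in it. All 14 genes were joined again when any library other than control replicate 5 was left out (13 without it), and 13 were with library totals. Without exercised replicate 3 and control replicate 4 the median r was 0.989.

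The gene of the 14-gene set with the most counts was Nfu_g_1_021459, number 23 by CPM. It stood at 4114, 11976, 1241, 2126 and 1883 CPM in exercised and at 4735, 7868, 1169, 10328 and 13435 CPM in control livers. By counts it was number 4 of all genes in control replicate 5, its highest library by CPM, number 3 in exercised replicate 2 and number 163 in control replicate 3, its lowest. The closest pair among all 192 genes was Nfu_g_1_004027 and Nfu_g_1_010414, both of this set, with r = 0.999 and Spearman's rho of 0.988 over the 10 livers. Nfu_g_1_004027 stood at 2171, 7407, 524, 1064 and 1050 CPM in exercised and at 2525, 3806, 712, 4125 and 6688 CPM in control livers. Nfu_g_1_010414 stood at 2041, 7089, 483, 929 and 917 CPM and at 2326, 3566, 702, 3605 and 6293 CPM. How the counting treated reads shared by similar genes is not given in the sources used here, so a part of such a likeness from shared reads was not tested. The steadiest of the set was Nfu_g_1_019825, with a CV of 19.9% where the median of the set was 91.8%.

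Genes below 1000 CPM followed the 14-gene set as well. Of 15429 such genes, 51 had an r of at least 0.95 with its mean course, 18 of them at 100 to 1000 CPM. The 56-gene set was followed by 16, the 90-gene set by 9 and the 15-gene set by 0 of the same genes. Among the 192 abundant genes, 12 reached this r with the 14-gene set, 23 with the 56-gene, 17 with the 90-gene and 0 with the 15-gene set. No member of the 15-gene set reached it, so the 0 for that set says little about other genes. The mean course of a set includes its own genes, so the counts among the 192 are high in part by construction. All these counts depend on how tight each set is and do not rank the sets. The mean courses of the 56-gene and 14-gene sets were correlated at r = -0.414, and those of the 90-gene and 14-gene sets at r = 0.0353, over 10 livers.

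The 15-gene set, led by Nfu_g_1_020367, took 4.38%, 4.24%, 3.77%, 3.85% and 5.11% of counts in the exercised livers and 6.71%, 6.33%, 5.65%, 3.89% and 4.63% in the control livers. By share, control replicates 1 to 3 were above every exercised liver, and control replicates 4 and 5 were not. By CPM summed over the set, control replicate 4 was above as well, at 54245 against 52594 in exercised replicate 5, the highest exercised liver. Of these sums, Nfu_g_1_020367 alone made up 21586 and 15103 CPM. Averaged over the 15 genes relative to each gene's mean, control replicates 3 and 4 (1.14 and 1.08 times) lay below exercised replicate 5 (1.17 times). Only control replicates 1 and 2 (1.31 and 1.38 times) lay above it. All 15 genes had a log2 change below 0, and none passed the test. The set was the loosest, with a median r of 0.653, and between 5 and 15 of its genes were joined again with 1 library left out and 7 with library totals.

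**Figure D4:**
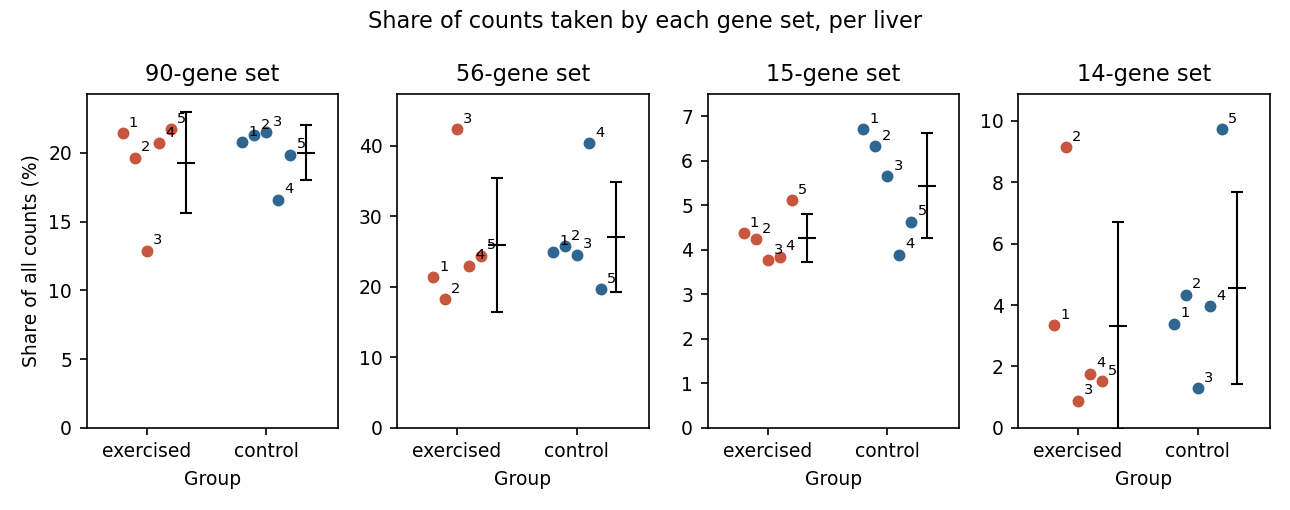
Share of all counts (%) taken by each of the 4 sets in each liver, with points numbered by replicate, red for exercised and blue for control, and the mean ± SD of 5 livers beside them, drawn from 0 upwards. The 56-gene set reaches 42.3% in exercised replicate 3 and 40.4% in control replicate 4, and the 14-gene set spans 0.885% to 9.72%.

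With genes left unscaled, no clear difference between the groups was found in the main direction of the shared variation. The first principal component of the 192 genes held 45.3% of their variance and averaged 1.04 ± 6.84 in exercised livers and -1.04 ± 5.17 in controls (SD, n = 5 each), with p = 0.643 by the exact permutation test. Its largest positive loadings were those of Nfu_g_1_007235, Nfu_g_1_021170 and Nfu_g_1_002545, of the 56-gene set, and its largest negative ones those of Nfu_g_1_011292, Nfu_g_1_003952 and Nfu_g_1_020840, of the 14-gene set. The second component held 28.4% and averaged -2.72 ± 2.34 in exercised livers and 2.72 ± 4.88 in controls (exact permutation p = 0.0556, adjusted over 4 measures p = 0.222). Unadjusted, the second passed 0.05 without exercised replicate 3 (exact permutation p = 0.0317), control replicate 3 (p = 0.00794, the smallest that 5 against 4 livers allow) or control replicate 4 (p = 0.0476). With any other single library left out, its exact permutation p lay between 0.0635 and 0.135. With library totals its difference was -2.52 in place of -5.44 (exact permutation p = 0.325). With each gene scaled to unit variance, which gives steady genes the same weight as variable ones, the first component differed by -13.4 between the groups (exact permutation p = 0.0159, unadjusted). The order of the 192 genes by level was least alike between exercised replicate 3 and control replicate 5, with a Spearman correlation of 0.356, and most alike between control replicates 1 and 2, with 0.957.

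Few abundant genes were called between exercised and control livers by edgeR, and few of all tested genes were. By edgeR's quasi-likelihood test on all 15621 genes (adjusted p under 0.05), 3 of the 192 were higher and 1 was lower in exercised livers, or 1.56% and 0.521%. The background over all tested genes was 2.04% higher and 1.25% lower, or 3.29% in either direction, so the share of abundant genes called was no larger than that of genes at large. At an adjusted p under 0.10 the counts were 4 and 5, against backgrounds of 4.56% and 3.31%. Limma-voom called 4 higher and 2 lower, against 2.16% and 1.33% of all genes. DESeq2 called 4 higher and 18 lower, or 2.08% and 9.38%, against 5.86% and 4.62% of the genes it tested, so the number of lower genes depended on the tool. With library totals edgeR called 4 higher and 0 lower (7 lower at an unadjusted p under 0.05), against 2.98% and 0.576%. No abundant gene was called higher by edgeR without exercised replicate 1 or 4 or control replicate 1 or 2 (4 to 5 at an unadjusted p under 0.05), and 1 was without exercised replicate 2. The share of all tested genes called higher was also small in these fits, at 0.595%, 0.372%, 0.465% and 0.323% in the order named, and 0.773% without exercised replicate 2. In the steady 90-gene set 2 rose and 1 fell, and in the 56-gene set 1 rose. The 14-gene and 15-gene sets held no called gene.

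Nfu_g_1_023605 had the smallest p. It stood at 2058, 2121, 1120, 2839 and 2776 CPM in exercised livers and at 287, 294, 688, 947 and 344 CPM in control livers. No control liver reached the lowest exercised one, which was exercised replicate 3. It rose by 2.09 ± 0.394 on the log2 scale (SE; edgeR adjusted p = 0.0218). With 1 library left out the adjusted p lay between 0.0121 and 0.0673, and the call was lost without exercised replicate 1 or 4 or control replicate 1 or 2.

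Nfu_g_1_020117 stood at 1592, 1716, 1101, 1685 and 1663 CPM in exercised and at 727, 925, 949, 857 and 874 CPM in control livers. The groups did not overlap. It rose by 0.84 ± 0.165 on the log2 scale (SE; edgeR adjusted p = 0.0256, between 0.00918 and 0.0806 with 1 library left out). Its call was lost without exercised replicate 1, 2 or 4 or control replicate 1 or 2.

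The gene that fell, Nfu_g_1_010874, has 381 bases and stood at 1098, 1026, 658, 892 and 1388 CPM in exercised and at 1846, 2923, 1471, 2721 and 1886 CPM in control livers. Every exercised liver lay below every control liver. It fell by 1.10 ± 0.249 on the log2 scale (SE; edgeR adjusted p = 0.0413). The adjusted p lay between 0.0277 and 0.122 with 1 library left out, and the call was lost without exercised replicate 1, 2 or 4, without control replicate 1, 2, 4 or 5, with library totals (adjusted p = 0.0656), with no filter (adjusted p = 0.0543), and without exercised replicate 3 and control replicate 4 together (adjusted p = 0.0610). The other gene that rose, the only called one of the 56-gene set, had means of 2129 ± 828 and 801 ± 333 CPM (SD, n = 5 each; log2 change of 1.41 ± 0.324, SE; edgeR adjusted p = 0.0432). Its adjusted p lay between 0.0184 and 0.119 with 1 library left out, and the call was lost without exercised replicate 1, 2, 3 or 4, without control replicate 1, 2, 3 or 5, and with no filter (adjusted p = 0.0509).

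The abundant genes as a whole lay slightly lower in exercised livers on the TMM scale. The log2 change was below 0 for 168 of the 192 genes, or 87.5%, against 51.7% of all tested genes, with a median of -0.28 and quartiles of -0.38 and -0.17 against a median of -0.019 over all tested genes. The genes vary together, so the count is not one of independent genes. By liver, the median over the 192 genes of log2 CPM minus the gene's mean overlapped between the groups. It was -0.187, -0.185, -0.280, -0.191 and 0.0737 in exercised replicates 1 to 5. In control replicates 1 to 5 it was 0.0921, 0.263, 0.0613, 0.375 and -0.188. The share of counts held by the same genes did not pass its test (exact permutation p = 0.127, unadjusted). With library totals, which move the median of all tested genes from -0.019 to 0.15, the abundant genes had a median of -0.093 and 137 were below 0. Relative to the median of all tested genes, the abundant genes lay at -0.27 with TMM factors and -0.25 with library totals. Without exercised replicate 3 and control replicate 4 the difference was -0.18, so it had the same sign without them.

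At an unadjusted p under 0.05, 36 of the 192 were lower, or 18.8%, against a background of 10.3%, and 5 were higher, or 2.60%, against 11.2%. With library totals 7 were lower, or 3.65%, against a background of 4.38%, and with upper-quartile factors 63, or 32.8%, against 12.6%, so the excess of lower genes depended on the scaling. With 1 library left out the number lay between 15 and 69. The 15 were 7.81% against a background of 8.76% without control replicate 2, and the 69 were 35.9% against 11.4% without exercised replicate 5. On the TMM scale every exercised liver lay below every control in 15 of the 192 genes, or 7.81%, against 2.64% of all tested genes. In 4, or 2.08%, against 3.32%, every exercised liver lay above every control. These counts were not made with library totals, so their dependence on the scaling was not tested. Of the 15 genes, 14 were in the 90-gene set and the other was Nfu_g_1_020367. The median log2 change of the 90-gene set was -0.29, and 85 of its genes were below 0. In the 56-gene set the median log2 change was -0.20, with 43 genes below 0. In the 14-gene set it was -0.66, with all 14 below 0 and none called at a median CV of 91.8%.

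**Figure D5:**
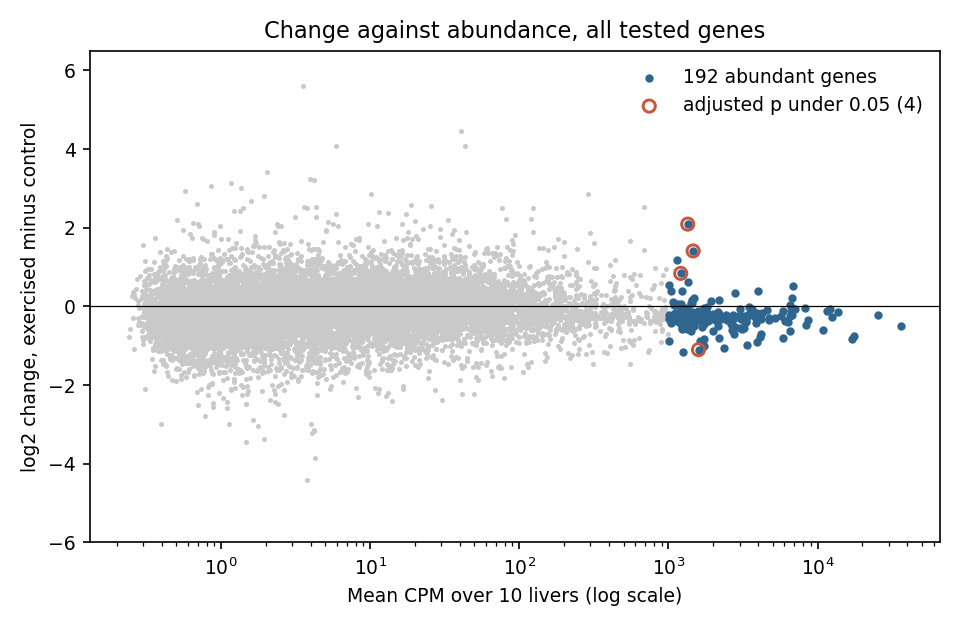
Log2 change, exercised minus control, against mean CPM over 10 livers on a log axis, for all 15621 tested genes in grey and the 192 abundant genes in blue, with red rings around the 4 with an adjusted p under 0.05. The blue points lie mostly below 0, with a median of -0.28, and the 4 ringed genes lie between 1000 and 2000 CPM.

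Genes near the threshold differed little in level on either side of it. The last 3 inside were Nfu_g_1_016043, Nfu_g_1_013242 and Nfu_g_1_020828, with means of 1015, 1010 and 1008 CPM. The first 3 outside were Nfu_g_1_009167, Nfu_g_1_010488 and Nfu_g_1_022799, with 997, 992 and 977 CPM.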

How the data were processed

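RNA was sequenced from 10 livers. The deposited table holds raw counts of reads per gene. The tools featureCounts 1.4.6-p4, STAR 2.4.1d and bcl2fastq 1.8.4 appear in the submitters' processing notes, with no role stated. For genome build, annotation and strand setting, nothing is given in the sources used here. The authors' RPKM, as deposited, divide most values by another library's total, in an order that steps down the rows, so they were used only to recover gene lengths, which agreed within 0.0011% between libraries. The list and the choices were made with earlier results of these data known.

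Genes were kept by filterByExpr by group (minimum count 10, minimum total 15). TMM factors and the quasi-likelihood test came from edgeR 4.0.16 in R 4.3.3, with Benjamini-Hochberg adjustment over all 15621 genes. Among 10 livers, library totals spanned 26850938 to 40089247 counts. SEs come from the change and its F statistic. Values with 1 number per library were tested by exact permutation of the 252 assignments, whose smallest p is 0.00794. Log2 CPM used a prior count of 2. Alternatives included DESeq2 1.42.0 and limma-voom (limma 3.58.1). Scripts were tested on simulated data.

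Genes are named by rank in CPM, level per kilobase, CV, loading, smallest p and nearness to 1000 CPM, and at most 2 identifiers that rose and 2 that fell are printed. Nfu_g_1_021459, Nfu_g_1_004027, Nfu_g_1_010414 and Nfu_g_1_019825 were chosen after their values were seen. Marker lists of cell types could not be matched to identifiers, and 0 were used.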

Additional observations from a re-analysis of the deposited data

Results flagged for a closer look

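Values were marked when the distance from the highest or lowest liver to its neighbour exceeded 0.71 of the whole range of the 5 livers in a group. By chance about 1 in 20 groups is marked, and 98 groups were examined, many of them of genes that vary together or were named for their spread. Of 30 marked values, 14 were of exercised replicate 3, 10 of control replicate 4 and 6 of exercised replicate 2.

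Exercised replicate 3 needed 69 genes to hold 50% of its counts, where the next exercised liver needed 128. Its most abundant gene took 4.91% of counts. The 90-gene set took 12.9% and the 56-gene set 42.3% of its counts. In the same liver Nfu_g_1_015843 stood at 54820 CPM, Nfu_g_1_019225 at 22984 CPM, Nfu_g_1_021050 at 26283 CPM and Nfu_g_1_002363 at 12679 CPM. Nfu_g_1_020117 was low there, at 1101 CPM. The most variable genes were high there too, with Nfu_g_1_007235 at 11706 CPM, Nfu_g_1_021170 at 24533 CPM, Nfu_g_1_018732 at 15788 CPM, Nfu_g_1_011104 at 5643 CPM and Nfu_g_1_002596 at 11881 CPM.

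Control replicate 4 was marked for Nfu_g_1_014314 at 82772 CPM, Nfu_g_1_015843 at 47999 CPM, Nfu_g_1_021050 at 28405 CPM, Nfu_g_1_019160 at 11753 CPM and Nfu_g_1_011088 at 6420 CPM. It was also marked for Nfu_g_1_007235 at 12905 CPM, Nfu_g_1_021170 at 20817 CPM, Nfu_g_1_018732 at 23927 CPM, Nfu_g_1_011104 at 4863 CPM and Nfu_g_1_002596 at 10996 CPM.

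Exercised replicate 2 was marked for genes of the 14-gene set, Nfu_g_1_011292 at 4517 CPM, Nfu_g_1_003952 at 9768 CPM, Nfu_g_1_020840 at 4470 CPM and Nfu_g_1_013242 at 1985 CPM. It was marked as well for Nfu_g_1_009167 at 2185 CPM and Nfu_g_1_010488 at 3096 CPM, just outside the list.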

How the results depend on the processing

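The list held 296 genes at 500 CPM, 86 at 2000 CPM and 115 with 1000 CPM required in every library, and 189 to 194 with 1 library left out. Higher genes, 3 in the main result, numbered 0 to 4 and lower genes, 1 in the main result, 0 to 4 with 1 library left out (4 to 7 and 15 to 69 at an unadjusted p under 0.05). No gene was called lower without exercised replicate 1, 2 or 4 or control replicate 1, 2, 4 or 5, where 0.260%, 0.519%, 0.177%, 0.338%, 0.177%, 2.08% and 0.868% of all tested genes were. Higher genes numbered 0 of 86 at 2000 CPM (0 at an unadjusted p under 0.05; background 2.04%). Lower genes numbered 0 with library totals (7 at an unadjusted p under 0.05; background 0.576%), 0 with no filter (25; background 0.533%) and 0 at 2000 CPM (10; background 1.25%), all by edgeR. They numbered 2 with the filter of 1 CPM (background 1.66%), limma-voom (1.33%), robust dispersions (1.25%), a list at 500 CPM (1.25%), or exercised replicate 3 and control replicate 4 left out (2.14%), 5 at an adjusted p under 0.10 (3.31%), and 18 with DESeq2 (4.62%), which called 4 higher. For these, the cause was not tested.

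The median change of the list was -0.093 with library totals, and -0.35 to -0.25 with 1 library left out. The median CV was 30.3% at 2000 CPM and 21.1% to 24.8% with 1 library left out, and the median r was 0.601 without exercised replicate 3 and control replicate 4, a choice made after seeing the data, and 0.259 to 0.515 with 1 library left out. The difference in the share of counts ranged from -6.04 to -2.71 percentage points and that in the genes holding 50% of counts from 13.5 to 36.2 with 1 library left out. Without both libraries these were -4.38 and 27.5 (exact permutation p = 0.0286 each, unadjusted). With 1 library left out the unadjusted exact permutation p lay between 0.0317 and 0.246 for the share. For the genes holding 50% of counts it lay between 0.0238 and 0.468. Each passed 0.05 only without exercised replicate 3. The difference on the first component ranged from -0.745 (without control replicate 5) to 5.21 and that on the second from -7.56 to -4.41. The second was -5.45 with RLE factors (exact permutation p = 0.0476) and -5.89 with upper-quartile factors (p = 0.0317). With unit variance the components differed by -13.4 and 1.99, their direction set by the loading of Nfu_g_1_014314. No paired analysis was possible because the fish numbers in the labels are not shared between the groups.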
